A study of Arabidopsis thaliana with 6 samples.

Results

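Transcripts of nuclear genes for the photosystems, their antenna and the Calvin cycle were compared between Arabidopsis rosettes after 48-h light submergence and untreated control rosettes. The genes were chosen by symbol from the nuclear loci to which the array's annotation assigns a probe set of a single gene. Symbols beginning with LHCA, LHCB, PSA, PSB, PPL, PPD, PETE, FNR, RBCS, RCA, PGK, GAPA, GAPB, FBA, TKL, SBPASE, PRK, RPE, PGR, NDF, CURT or STN qualified. This rule found 14 genes among 13217 nuclear loci, whereas 88 nuclear genes of the TAIR10.1 gene table carry such a symbol. Of the 14 genes, 11 encode photosystem, cyclic electron flow or Calvin cycle proteins. The other 3 match by their letters only: PPDK is pyruvate orthophosphate dikinase, TKL is TICKLE and not a transketolase, and STN1 is a telomere-capping protein and not a state-transition kinase.

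The 6 ATH1 arrays, each for 1 RNA sample, came from 4-week-old wild-type plants of the ecotype Columbia (Col-0). The plants had been grown in long days, and the labels name leaves as the tissue. The light submergence group consists of 3 arrays of plants kept under water in the light for 48 h, and the control group of 3 arrays of untreated plants in air, harvested at 0 h. Each replicate was pooled from several plants. The submerged plants were therefore also 48 h older. The labels give normal growth conditions for the time under water, whereas the study's methods give dimmer light there than during growth. The effects of water, age and any change of light intensity cannot be told apart in this design.

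Photosynthesis in leaves begins at the light-harvesting antenna proteins, which bind chlorophyll and pass excitation energy to photosystem II and photosystem I in the thylakoid membrane. The photosystems drive electrons from water to NADPH and build the proton gradient for ATP synthesis, and the Calvin cycle in the stroma spends both to fix CO2. The nucleus encodes the antenna proteins, many small subunits of both photosystems and nearly all Calvin cycle enzymes, whereas the reaction centre proteins and the large subunit of Rubisco are encoded in the plastid genome.

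After 48-h light submergence, 10 of the 11 photosynthesis genes were downregulated, none was upregulated, and PGRL1B did not pass the test. A gene was called changed when limma gave an adjusted p under 0.05 over all 22746 probe sets and the difference was at least 1.5-fold. Over all 13217 nuclear loci, 22.4% were called lower and 15.8% higher by the same rule. The median log2 fold change of the 11 genes was -1.67, against -0.28 over all nuclear loci. Counting all 14 genes, 10 were lower, 2 were higher and 2 were not called, and the median was -1.51. The same 10 genes had every submerged array below every control array, a separation shown by 29.8% of nuclear loci. The 2 upregulated genes, PPDK and STN1, had every submerged array above every control array, which 20.6% of nuclear loci showed. The call of STN1 rests on very low control signals, given below. In whole rosettes, fewer cells of a type and less RNA per cell cannot be told apart.

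**Figure D1:**
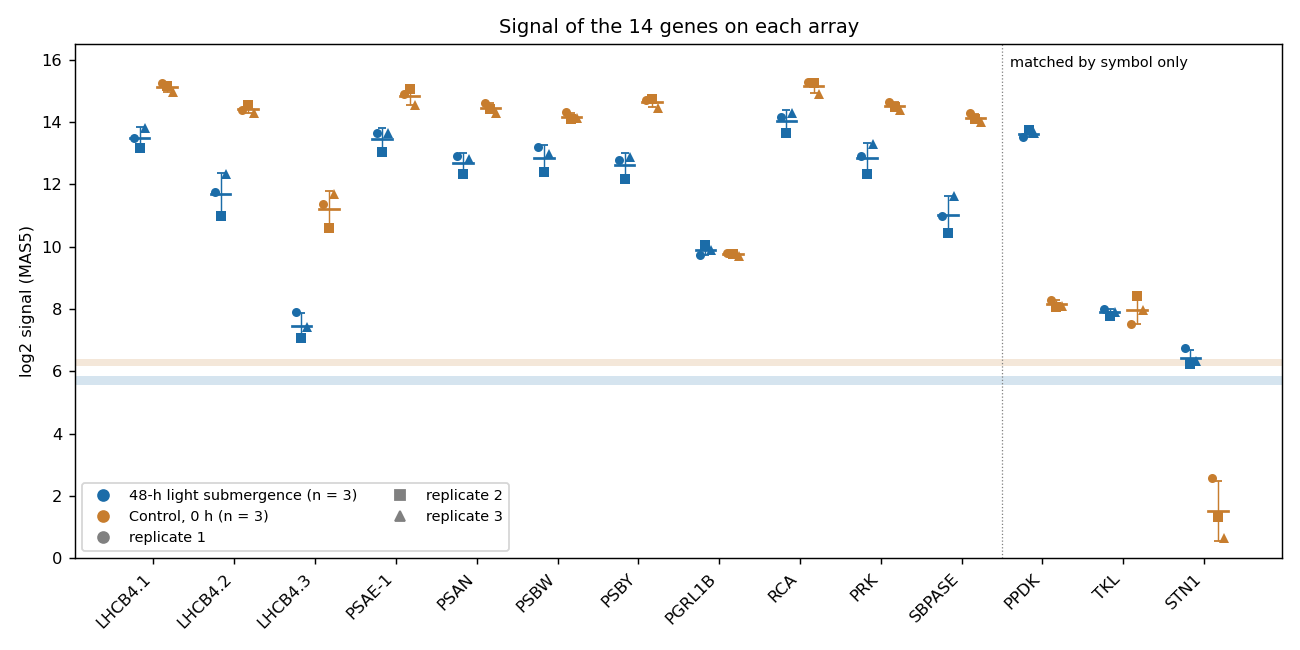
Deposited log2 signal of the 14 genes on each array, with 48-h light submergence (blue) left of control (orange), the marker shape giving the replicate, bars the mean and whiskers the SD (n = 3 each). The shaded bands span the 40th percentile of the arrays of each group, taken as background. For 10 genes all submerged arrays lie below all control arrays, and for PPDK and STN1 all lie above.

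All 3 measured antenna genes were downregulated, with a median log2 fold change of -2.73. They encode proteins of the CP29 type, minor antenna proteins that link the outer light-harvesting complexes to the photosystem II core. LHCB4.3 (At2g40100) had log2 signals of 7.90, 7.06 and 7.42 on the submerged arrays, against 11.38, 10.59 and 11.69 on the control arrays. Its highest submerged array lay far below its lowest control array, and the decrease was 13.6-fold (log2 fold change -3.76, standard error 0.29, limma adjusted p = 3.852e-06). LHCB4.2 (At3g08940) had 11.74, 10.97 and 12.31 on the submerged arrays, against 14.37, 14.55 and 14.30 on the control arrays. It was 6.64-fold lower after light submergence (log2 fold change -2.73, standard error 0.30, limma adjusted p = 3.235e-05), and its submerged arrays were spread more widely (SD 0.68) than its control arrays (SD 0.13). LHCB4.1 (At5g01530) had 13.50, 13.16 and 13.82 on the submerged arrays, against 15.26, 15.16 and 14.96 on the control arrays. It was 3.10-fold lower (log2 fold change -1.63, standard error 0.24, limma adjusted p = 0.0002496), the smallest decrease of the 3 paralogs. Its control signals lay close to the highest signals of those arrays, 15.75, 15.52 and 15.35. The part of this in the order of the paralogs was not tested.

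Changes of the 3 paralogs were also set against each other within each array, as the difference between the log2 signals of a pair. With 3 arrays a group, the exact two-sided permutation test cannot give a p below 0.1, so no such difference could pass the threshold, and the 6 pairs, 3 among the antenna genes and 3 among the Calvin cycle genes, are given as values only. The change of LHCB4.3 minus that of LHCB4.1 was -2.13 on the log2 scale (standard error 0.44). That of LHCB4.2 minus that of LHCB4.1 was -1.10 (standard error 0.22), and in both pairs the arrays of the groups did not overlap. LHCB4.3 minus LHCB4.2 gave -1.03 (standard error 0.53), and here the arrays of the groups overlapped.

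For photosystem I, the genes of both measured subunits were downregulated, with a median log2 fold change of -1.57. PSAN (At5g64040) encodes a lumenal subunit on the side where plastocyanin docks. It had log2 signals of 12.91, 12.34 and 12.82 on the submerged arrays, against 14.62, 14.42 and 14.30 on the control arrays. The groups were separated by more than their own spread, at 3.38-fold lower (log2 fold change -1.76, standard error 0.21, limma adjusted p = 6.979e-05). PSAE-1 (At4g28750) encodes a stromal subunit on the side where ferredoxin docks. Its signals were 13.65, 13.02 and 13.66 on the submerged arrays, against 14.90, 15.04 and 14.53 on the control arrays. It was 2.60-fold lower (log2 fold change -1.38, standard error 0.25, limma adjusted p = 0.001141).

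PSBY and PSBW, which encode small membrane-spanning subunits of photosystem II, were both downregulated as well, with a median log2 fold change of -1.67. PSBY (At1g67740) had log2 signals of 12.79, 12.16 and 12.89 on the submerged arrays, against 14.71, 14.72 and 14.45 on the control arrays. It was 4.04-fold lower (log2 fold change -2.01, standard error 0.23, limma adjusted p = 4.902e-05), the largest decrease among the 4 photosystem subunits. PSBW (At2g30570) had 13.18, 12.39 and 12.98 on the submerged arrays, against 14.32, 14.09 and 14.11 on the control arrays. Its decrease was 2.50-fold (log2 fold change -1.32, standard error 0.23, limma adjusted p = 0.0008283), and again no submerged array reached the control range.

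PGRL1B (At4g11960) stood apart from the other photosynthesis genes. It encodes a thylakoid membrane protein of the PGR5-like family, which acts in cyclic electron flow around photosystem I. Its log2 signals were 9.73, 10.06 and 9.89 on the submerged arrays, against 9.79, 9.76 and 9.71 on the control arrays. The groups overlapped, and the difference did not pass the test (log2 fold change 0.14, 95% interval -0.18 to 0.46, limma adjusted p = 0.4919). The interval lay above those of all 10 downregulated genes. After quantile normalization the estimate lay at -0.0005, so it has no settled sign.

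All 3 Calvin cycle genes found by the rule were downregulated. Their median log2 fold change was -1.67, and SBPASE decreased most. SBPASE (At3g55800) encodes sedoheptulose-bisphosphatase, an enzyme specific to the regeneration phase of the cycle. It had log2 signals of 10.99, 10.42 and 11.63 on the submerged arrays, against 14.28, 14.08 and 13.99 on the control arrays. The decrease was 8.60-fold (log2 fold change -3.11, standard error 0.27, limma adjusted p = 7.325e-06), second among the members after LHCB4.3. PRK (At1g32060), phosphoribulokinase, makes the CO2 acceptor ribulose bisphosphate. It had 12.90, 12.31 and 13.30 on the submerged arrays, against 14.65, 14.49 and 14.38 on the control arrays, and was 3.19-fold lower (log2 fold change -1.67, standard error 0.25, limma adjusted p = 0.0003442). RCA (At2g39730) encodes Rubisco activase, which frees the active site of Rubisco from bound sugar phosphates. Its signals were 14.15, 13.66 and 14.30 on the submerged arrays, against 15.29, 15.23 and 14.90 on the control arrays. RCA had the smallest decrease of the 10 downregulated members, 2.16-fold (log2 fold change -1.11, standard error 0.25, limma adjusted p = 0.004571), and quantile normalization brought it to -0.74 (limma adjusted p = 0.03803). Like those of LHCB4.1, the control signals of RCA lay close to the highest signals of the arrays. The part of this in the order of the 3 Calvin cycle genes was not tested.

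Within each array, the change of SBPASE minus that of PRK was -1.43 on the log2 scale (standard error 0.08), and minus that of RCA it was -1.99 (standard error 0.19). PRK minus RCA gave -0.56 (standard error 0.12). For each of these 3 pairs, the within-array differences on the submerged arrays all lay outside the control range. The difference between SBPASE and PRK varied little among arrays of a group, with an SD of 0.13 on the submerged arrays and 0.02 on the control arrays.

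**Figure D2:**
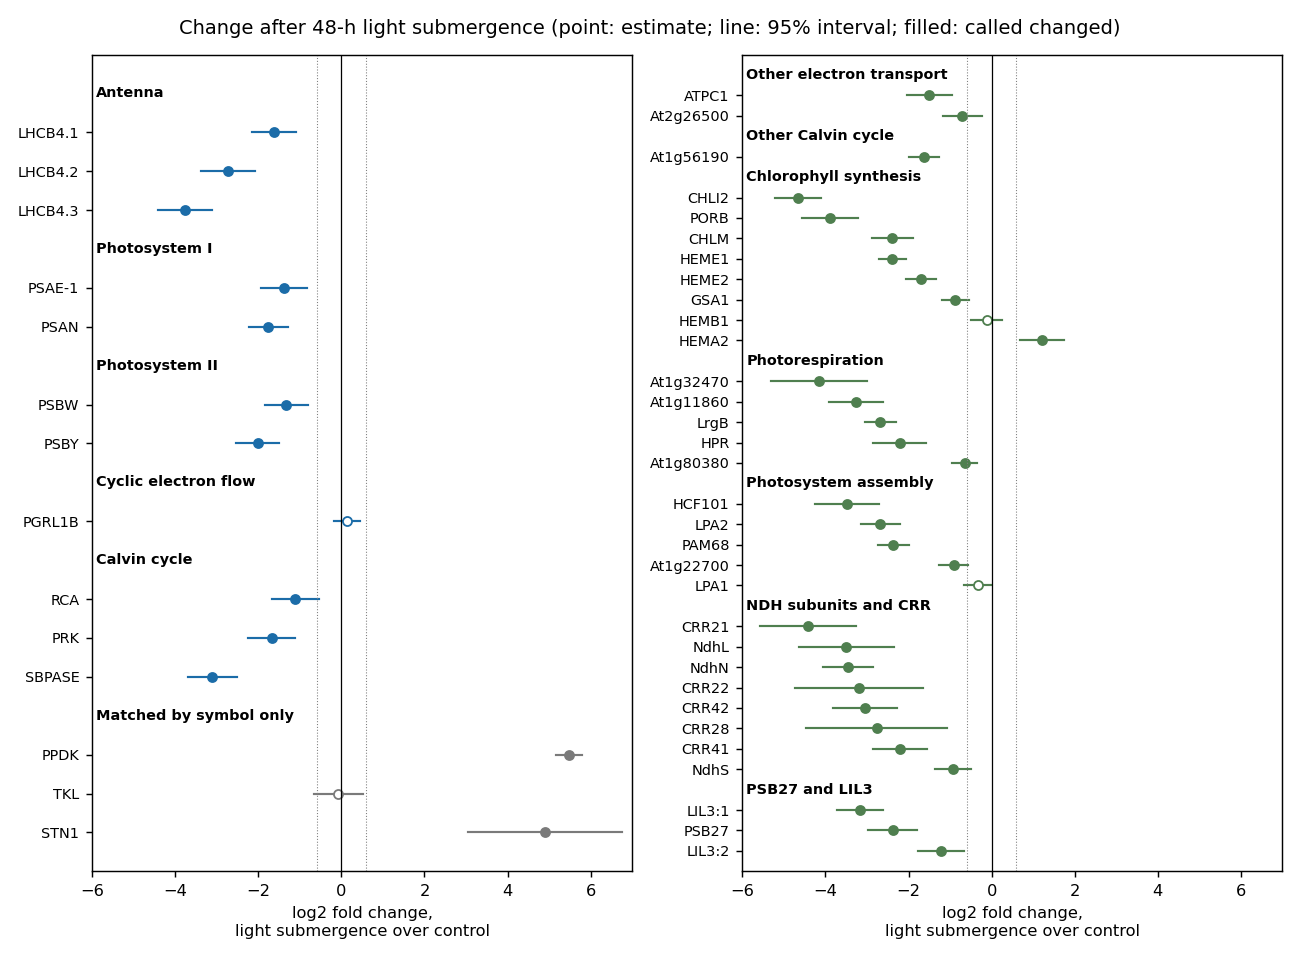
Log2 fold change, 48-h light submergence over control, of the 14 genes by role (left) and of other genes from lists of related pathways (right), with points for limma estimates, lines for 95% intervals, filled points for genes called changed and dotted lines at 1.5-fold. The values run between -3.76 for LHCB4.3 and 5.47 for PPDK on the left. STN1 and CRR22 lay below background in one group, so their points are fitted values and no measure of size. CRR21 and CRR28 were above background on only 2 and 1 of the submerged arrays, so the size of their changes is uncertain.

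The 3 genes that matched by symbol only did not share the decrease. PPDK (At4g15530), which interconverts pyruvate and phosphoenolpyruvate, had log2 signals of 13.51, 13.74 and 13.63 on the submerged arrays, against 8.30, 8.05 and 8.11 on the control arrays. It was 44.5-fold higher after light submergence (log2 fold change 5.47, standard error 0.14, limma adjusted p = 1.143e-08), the largest fitted difference of the 14 genes, and its arrays varied little within each group. TKL (At3g63180) had 8.00, 7.79 and 7.91 on the submerged arrays, against 7.51, 8.42 and 7.98 on the control arrays. Its groups overlapped and it did not pass the test (log2 fold change -0.07, 95% interval -0.65 to 0.51, limma adjusted p = 0.8605). STN1 (At1g07130) had 6.74, 6.23 and 6.32 on the submerged arrays, all above background, against 2.58, 1.33 and 0.66 on the control arrays, none of them above background. Background was the 40th percentile of an array, 5.55 to 5.84 on the submerged arrays and 6.17 to 6.39 on the control arrays. Against that level STN1 was at least 1.09-fold higher. The limma adjusted p of 0.0007035 belongs to the fitted difference, and the bound itself was not tested. The remaining 13 genes were above background on all 6 arrays.

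Several measures moved with these decreases. Submerged replicate 2 gave the lowest submerged signal for 10 of the 10 downregulated members, also after quantile normalization, and for 58.2% of the 2963 downregulated nuclear loci. The array medians were 6.79, 6.64 and 6.97 on the submerged arrays, against 7.25, 7.22 and 7.19 on the control arrays, so submerged replicate 2 was also the array with the lowest median. Without it, all 10 members were still called lower. The median change over all probe sets was -0.26 on the deposited scale, 0.02 after quantile normalization and -0.32 after subtraction of the 75th percentile. Under each of these scalings the same 10 members were called lower and PPDK and STN1 higher.

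Brightness was shared by the members beyond the rule. On the control arrays, 9 of the 10 downregulated genes, all but LHCB4.3, had a mean log2 signal of at least 14, a level reached by 28 of the 13217 nuclear loci. Among the 19 bright loci that were not members, 78.9% were also called lower, none was called higher and 4 were not called, with a median log2 fold change of -2.17. Bright loci were picked by high control signal alone, a choice that by itself favours lower over higher calls. The share of bright members that were lower, 9 of 9, is therefore to be read against that of equally bright loci, a comparison added after the values were seen. The bright loci outside the rule included related genes, among them ATPC1, PORB, HPR and PSB27. The part of brightness in the decreases of the members was not tested.

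**Figure D3:**
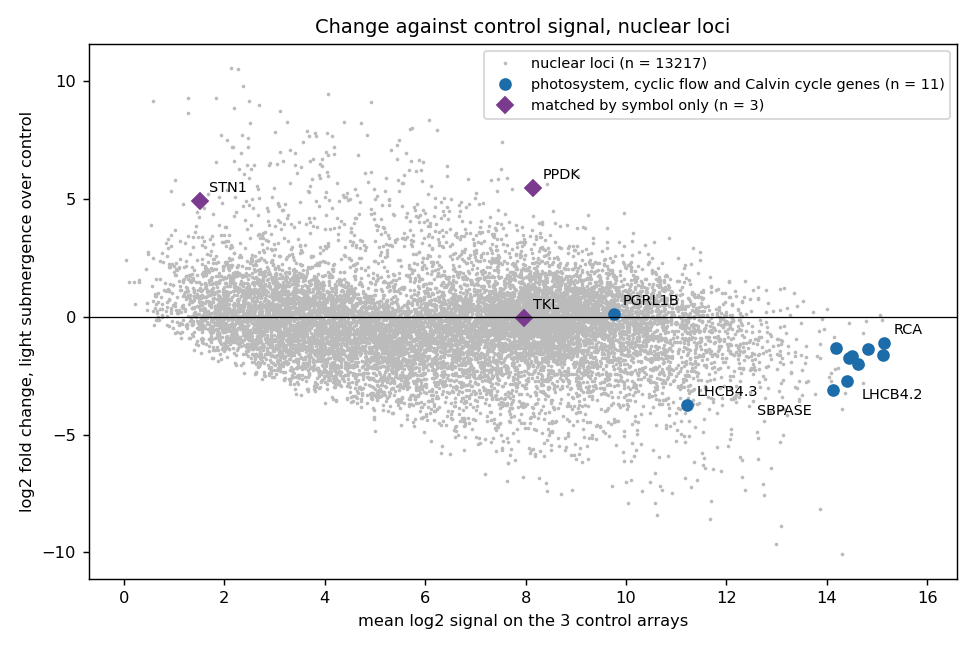
Log2 fold change, 48-h light submergence over control, against the mean log2 control signal for 13217 nuclear loci (grey), the 11 photosynthesis genes (blue circles) and the 3 genes matched by symbol only (purple diamonds). Of the blue points, 9 lie at a control signal of 14 or more and below 0, while PGRL1B lies near 0.

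The other measured nuclear genes of electron transport and the Calvin cycle were lower too. From a list of 56 loci for photosystems and electron transport, 9 were measured and all 9 were called lower, 7 of them members. ATPC1, the gamma subunit of the chloroplast ATP synthase, was 2.83-fold lower (limma adjusted p = 0.000567), and At2g26500 had a log2 fold change of -0.70 (limma adjusted p = 0.0188). The call of At2g26500 was lost after quantile normalization, at -0.30 (limma adjusted p = 0.3183), and also without control replicate 2 or control replicate 3 (limma adjusted p = 0.05759 and 0.05637). Of 24 Calvin cycle loci, 4 were measured, and the only one that is not a member, At1g56190, had a log2 fold change of -1.62 (limma adjusted p = 1.955e-05). PSB27, an assembly factor of photosystem II, and LIL3:1 and LIL3:2, antenna-like proteins that bind chlorophyll, fall outside the rule and were singled out after their values were seen. Their log2 fold changes were -2.38, -3.17 and -1.22, and all 3 were called lower.

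Chlorophyll synthesis supplies the pigment that the antenna proteins bind. Of 24 listed genes, 8 were measured, of which 6 were downregulated, 1 was upregulated and 1 was not called, with a median log2 fold change of -2.05. CHLI2, a subunit of magnesium chelatase, had 6.90, 6.10 and 7.16 on the submerged arrays, against 11.31, 11.43 and 11.41 on the control arrays, and was 25.3-fold lower (log2 fold change -4.66, limma adjusted p = 3.962e-07). PORB, a light-dependent protochlorophyllide oxidoreductase, was 14.9-fold lower (log2 fold change -3.89, limma adjusted p = 3.742e-06), and CHLM, which methylates magnesium protoporphyrin, was 5.24-fold lower. HEMA2, a glutamyl-tRNA reductase at the first step of tetrapyrrole synthesis, moved the other way, with 8.74, 9.31 and 8.67 on the submerged arrays, against 8.03, 7.51 and 7.54 on the control arrays (2.31-fold higher, limma adjusted p = 0.002019). HEMB1 was not called, at -0.12 (limma adjusted p = 0.6277). Of 9 listed genes of chlorophyll breakdown, only NOL, a chlorophyll b reductase, was measured, and it was called lower at -1.17 (limma adjusted p = 0.0004515).

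Photorespiration recycles the product of the oxygenase reaction of Rubisco. From 17 listed loci, 5 were measured and all 5 were called lower, with a median log2 fold change of -2.68. The largest decreases were those of At1g32470, at -4.15, At1g11860, at -3.28, and LrgB, a plastid glycolate and glycerate transporter, at -2.68. At1g80380, at -0.65, lost its call after quantile normalization, at -0.58. Among factors that assemble the photosystems, 5 of 13 listed genes were measured and 4 were called lower. HCF101, needed for the iron-sulfur clusters of photosystem I, had a log2 fold change of -3.48 (limma adjusted p = 1.796e-05). LPA2 and PAM68, which act in the assembly of photosystem II, had -2.68 and -2.36. LPA1, another factor of photosystem II assembly, was not called, at -0.34 (limma adjusted p = 0.08424).

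The NDH complex carries another route of cyclic electron flow, beside that of PGR5 and its partner proteins. A list of 8 nuclear genes for its subunits and for CRR proteins, which assemble it or process its plastid transcripts, was added after the values were seen. All 8 were called lower, where 22.4% of all nuclear loci were called lower. Since the list was made with the values known, its count is no like comparison with that share. The median log2 fold change was -3.13, which depends on genes with submerged signals below background. With 32 added to the signal, CRR22 moved from -3.20 to -1.99 and CRR28 from -2.77 to -1.53. PGRL1B, the only member of the PGR5 route, had 0.14, and 1 gene cannot stand for that route. The difference between the routes was not tested. CRR21, a pentatricopeptide repeat protein that edits an ndh transcript, had 5.89, 3.96 and 6.39 on the submerged arrays, against 9.84, 9.88 and 9.78 on the control arrays (log2 fold change -4.42, limma adjusted p = 5.696e-05). CRR21 was above background on only 2 of the submerged arrays, and with 32 added to the signal its change was -3.57. The subunit genes NdhL and NdhN had -3.49 and -3.46, and NdhS, the ferredoxin-binding subunit, had -0.94. CRR22 was above background on no submerged array and was at least 3.75-fold lower. Its limma adjusted p of 0.003328 belongs to the fitted change, and the bound itself was not tested.

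Photosystem genes of the plastid genome differed in their counts from those of the nucleus. All 7 nuclear antenna and photosystem members were called lower, against 3 of 20 plastid genes, with none higher and a median log2 fold change of -0.38 for the plastid genes. The plastid count stands beside 22.4% of nuclear loci called lower. Among other plastid genes, 3 of 6 for the ATP synthase, 6 of 10 for the NDH complex, 1 of 6 for the cytochrome b6f complex and 21 of 26 for genes outside these complexes, with a median of -1.70, were called lower. The 3 plastid photosystem genes called lower were psbN, psbB and psaJ, at -0.90, -0.70 and -0.68. psbA, which encodes the D1 protein of the photosystem II reaction centre, had 13.79, 13.57 and 13.22 on the submerged arrays, against 13.08, 12.86 and 13.12 on the control arrays. Its groups did not overlap, but it did not pass the test (log2 fold change 0.51, limma adjusted p = 0.06233). Of the 20 plastid photosystem genes, 7 had every submerged array below every control array, and psbA alone had them all above. Over all nuclear loci these shares were 29.8% and 20.6%. rbcL, the large subunit of Rubisco, was lower at -1.38 (limma adjusted p = 6.825e-05), beside -1.11 for its nuclear activase RCA. The difference between nuclear and plastid genes was not tested. The RNA was labelled with a 3' IVT kit, which primes on poly(A) tails, and the part of this labelling in the plastid signals was not tested either.

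**Figure D4:**
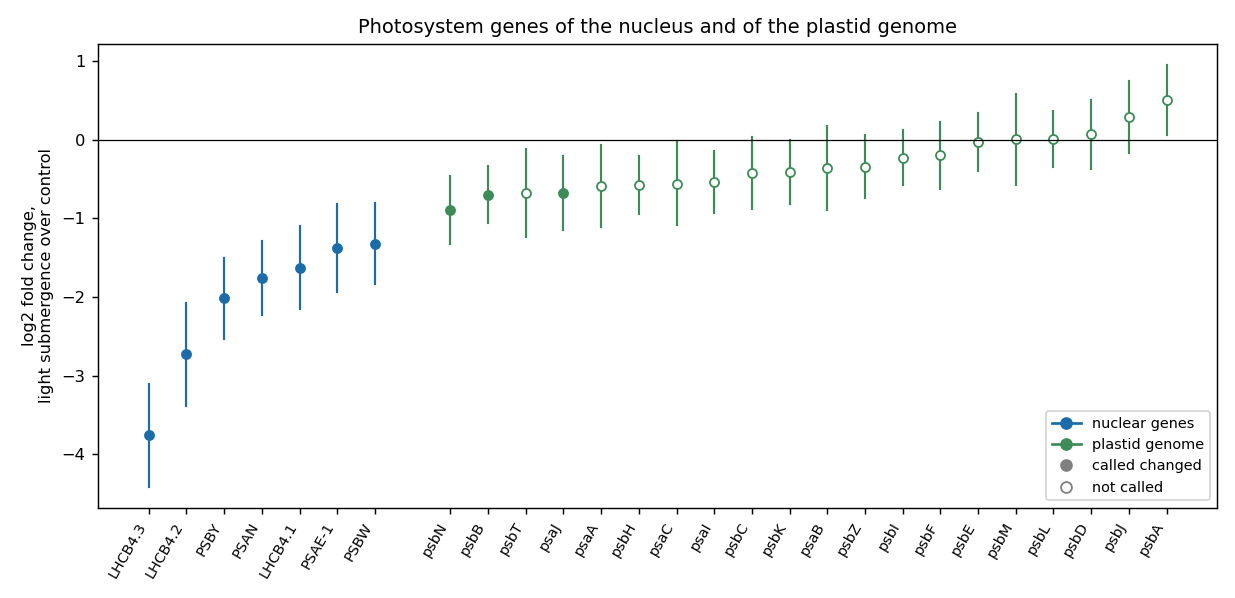
Log2 fold change, 48-h light submergence over control, of the 7 nuclear antenna and photosystem genes (blue) and of 20 photosystem genes of the plastid genome (green), with 95% intervals and filled points for genes called changed. All nuclear points are filled and lie at or below -1.32, whereas 3 plastid points are filled and psbA has the highest value, 0.51.

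Leaf identity could be checked only in part. None of the listed mesophyll, epidermis, phloem, xylem and flower markers was measured by a single-gene probe set, and none of 18 listed regulators of photosynthesis genes was. Of 3 root markers, 2 were measured: EXPA7 was above background on 0 arrays and PYK10 on 1 control array, and neither was called. Of 4 guard cell markers, 2 were measured. At1g22690 had 9.81, 7.64 and 9.85 on the submerged arrays, against 10.36, 10.85 and 10.70 on the control arrays, and was called lower (log2 fold change -1.54, limma adjusted p = 0.02549). FMA was not called, at -0.56 (limma adjusted p = 0.3888). Their part in the decreases of the photosynthesis genes was not tested.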

How the data were processed

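The authors hybridised 3 light submergence and 3 control samples to 1-colour ATH1 arrays and summarised probe sets with the Affymetrix software MAS5. Values were deposited as log2 signals. The authors had brought the arrays to a common level, since the 2% trimmed mean of the signal off the log scale was 495.2 to 496.3 on all 6. RNA was extracted with Trizol by the labels and with the RNeasy kit by the paper. The paper describes the 3 samples of a group as biological replicates.

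Of 22746 probe sets, 13513 had 1 gene in the array's annotation, 503 several and 8730 none, and 13436 of those with 1 gene matched a locus of the TAIR10.1 gene table. A gene with several probe sets was taken at the one of highest mean signal. Each of the 14 genes had a single probe set. All probe sets were tested with limma 3.58.1 in R 4.3.3, with a trend of the variance on the mean signal and Benjamini-Hochberg adjustment. The fit was tested on simulated data. Recovery of the largest simulated decreases was required only of probe sets brighter than the median, since dimmer ones were too noisy. A fold against a group with no array above the 40th percentile is a lower bound against the mean of, per array, the higher of that percentile and the gene's own signal. The number of arrays, 3 a group, limits the precision. Correlations between arrays were 0.921 within the submerged group, 0.909 to 0.924 within the controls and 0.732 to 0.806 between groups.

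The genes and lists were chosen with earlier results of these data known. Values on each array were given for up to 4 changed genes per role and direction and for genes that moved against their role, and up to 3 changed genes per list and direction were named with their fold changes. List genes beyond these, such as NdhS, and genes that were not called were named after their values were seen. As alternatives, the arrays were quantile normalized or set to their 75th percentile, 32 was added to the signal, only the 14538 probe sets exceeding background on 3 or more arrays were tested, the trend was dropped, the replicate number was added as a block, each array was left out, and other thresholds or the dimmest probe set of a gene were used. Python 3.11.15 with matplotlib 3.10.9 drew the figures.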

Additional observations from a re-analysis of the deposited data

How the results depend on the processing

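Under all 16 alternatives, the 10 downregulated members stayed called lower and PPDK and STN1 higher. Some of them could not remove a call of a member. Dropping the fold threshold or the adjustment of p only loosens the rule. The choice of the dimmest probe set changes nothing, since each member had a single probe set. The antenna, photosystem I, photosystem II and Calvin cycle genes kept counts of 3, 2, 2 and 3 called lower. Leaving out each array in turn, the count of members called lower stayed at 10. The labels do not say whether same-numbered samples were paired. Deviations of same-numbered arrays correlated at only 0.03, -0.01 and 0.06, and with a replicate block 10 members were still lower and 2 higher. TKL reversed to 0.17 after quantile normalization, and PGRL1B to -0.0005, neither passing the test. Leaving out each array in turn, TKL ranged between -0.30 and 0.15, the last without control replicate 2. Of the 2 electron transport genes outside the rule, 1 was called lower after quantile normalization and at a 2-fold threshold, and the count ranged between 1 and 2 when single arrays were left out. That gene was ATPC1. At2g26500 lost its call in each case. At1g80380 lost its call after quantile normalization, at -0.58, and at a 2-fold threshold, which left 4 photorespiration genes called lower in each case. The 2-fold threshold also removed GSA1, At1g22700 and NdhS, whose log2 fold changes of -0.88, -0.92 and -0.94 fall short of it. After quantile normalization, At1g80380 fell short of 1.5-fold only, with a limma adjusted p of 0.006849, and At2g26500 missed both criteria. Without control replicate 2 or 3, At2g26500 missed the adjusted p only. Why these values moved was not tested. An offset of 32 brought the fitted change of STN1, which lay below background in the controls, to 1.75. Counts of promoter motifs were not run, because no promoter sequences were used here. With 3 arrays a group, the limma intervals ran from -0.65 to 0.51 for TKL and from -0.18 to 0.46 for PGRL1B. Both intervals include no change, and changes of either gene within its interval remain compatible with the data.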
